A study of Mus musculus with 16 samples.

Results

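Aconitate decarboxylase 1 (Acod1), the enzyme that makes itaconate, and 8 enzymes grouped here as TCA cycle enzymes were followed in bone marrow derived macrophages (BMDMs). Among the 8, Idh1 and Mdh1 encode cytosolic forms. The genes were those whose symbol in the count table equals Acod1, Cs, Idh1, Idh2, Idh3a, Ogdh, Fh1, Mdh1 or Mdh2, which gave 9 of 22287 genes. Bone marrow of C57BL/6J mice aged 8 weeks was grown for 7 days, with GM-CSF at 20 ng/ml (GM-BMDMs, or GM) or M-CSF at 50 ng/ml (M-BMDMs, or M). Cells sat on dishes treated for cell attachment (TC, tissue culture) or on untreated dishes (noTC), and received vehicle (steady state) or LPS at 100 ng/ml for 3 h. The 8 groups are GM and M on each dish (for example GM-TC and M-noTC), and the same names followed by LPS where it was given, with 2 biological replicates each, and the study asked how the dish surface shapes the macrophages. All groups are wild type cells of 1 strain, and M-BMDMs were seeded more thinly than GM-BMDMs, so growth factor and seeding density cannot be told apart.

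The TCA cycle oxidises acetyl units in mitochondria. Citrate synthase (Cs) makes citrate, which becomes isocitrate by way of cis-aconitate, isocitrate and oxoglutarate dehydrogenases remove carbon dioxide, and fumarase and malate dehydrogenase close the cycle. ACOD1 takes cis-aconitate out of the cycle and turns it into itaconate, a metabolite that inhibits succinate dehydrogenase, and macrophages are known for inducing Acod1 after LPS.

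Promoter sequences are shown for Acod1, which rose most upon LPS challenge, and for Idh1, which fell most. They are RefSeq sequences of build GRCm38.p6 and give the 250 bases before a start site, 5′ to 3′ on the strand of the gene. Capitals mark matches to the NF-kB type pattern GGAANNNCC, read on both strands. The Acod1 window is chr14:103046762-103047011 on the plus strand. Idh1 has 2 start sites on the minus strand, with windows chr1:65186480-65186729 (start site A) and chr1:65179143-65179392 (start site B).
Acod1: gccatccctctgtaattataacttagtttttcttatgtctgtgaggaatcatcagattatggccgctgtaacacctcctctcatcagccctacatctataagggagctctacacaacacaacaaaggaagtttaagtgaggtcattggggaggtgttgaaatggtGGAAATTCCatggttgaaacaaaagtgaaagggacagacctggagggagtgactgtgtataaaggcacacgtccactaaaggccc
Idh1, start site A: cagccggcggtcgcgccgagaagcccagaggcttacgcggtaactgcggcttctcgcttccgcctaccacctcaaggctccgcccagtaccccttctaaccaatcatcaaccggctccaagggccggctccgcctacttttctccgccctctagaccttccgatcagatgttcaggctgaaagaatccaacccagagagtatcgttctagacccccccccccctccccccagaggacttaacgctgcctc
Idh1, start site B: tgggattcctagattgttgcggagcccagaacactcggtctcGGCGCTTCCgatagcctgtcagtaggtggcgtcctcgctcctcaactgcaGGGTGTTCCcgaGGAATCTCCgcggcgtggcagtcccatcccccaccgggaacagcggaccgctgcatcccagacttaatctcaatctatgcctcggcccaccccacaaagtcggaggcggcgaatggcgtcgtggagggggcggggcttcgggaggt

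The Acod1 window holds 1 match, which starts 85 bases before the start site. The Idh1 windows hold 0 matches at start site A and 3 at start site B, which start 208, 158 and 146 bases before it. The windows of Cs and Mdh2 hold 1 match each, and those of Idh2, Ogdh, Fh1 and Mdh1 hold 0. This pattern is in 15.7% of all 32851 promoter windows of this length, and a match is a description of the letters, not a binding site. The other patterns searched were GAAANNGAA (interferon response element, 7.13% of windows), TGANTCA (AP-1, 6.75%), TTGCNNAA (C/EBP, 9.56%) and TGACGTCA (cyclic AMP response element, 1.55%). The Acod1, Cs, Idh1, Idh2, Fh1 and Mdh1 windows held none of those 4. TGACGTCA was in the Mdh2 window, 127 bases before its start, and in 3 of the 6 Ogdh windows, which overlap each other, and TTGCNNAA was in another 2 Ogdh windows, which also overlap.

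Total counts per library lay between 17527802 and 31458363, and 3 counts corresponded to 0.0954 to 0.171 CPM, the usual scaling of a gene's counts to the total of its library. Levels are given as CPM by library size, and fold changes and tests come from 1 edgeR quasi-likelihood fit over the 16 libraries with TMM scaling, with a gene called at a Benjamini-Hochberg adjusted p under 0.05 over 12514 genes tested. All 9 genes passed the filter on low counts. TMM factors ranged from 1.11 to 1.39 in the steady state libraries and from 0.778 to 0.842 in the LPS libraries. Without them, the median log2 fold change of all genes moved to -0.53 and -0.54 upon LPS in GM-TC and GM-noTC, to -0.83 and -0.73 in M-TC and M-noTC, and to -0.29 for GM against M at steady state on either dish. Changes of the TCA cycle enzymes are of that size, so the fold change figures show both scalings for them. In the text, fold changes are with TMM unless library size is named. With 2 libraries a group, an exact two-sided permutation test cannot give a p below 0.3333, and the adjusted p-values rest on the spread between replicates shared over all groups. In bulk RNA, fewer cells of a type and less RNA per cell cannot be told apart.

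All 7 macrophage markers were above the floor in every group, with a summed level of 18042.5 to 45392.8 CPM. Neutrophil markers summed to 14.4 to 35.4 CPM in the GM libraries and 0.452 to 1.73 CPM in the M libraries, where Elane and Mpo were at 0 counts in each library. Dendritic cell markers summed to 17.8 to 72.0 CPM in GM and 0.452 to 1.25 CPM in M. Mast cell markers summed to at most 1.67 CPM and fibroblast markers to at most 10.6 CPM. The 17 heart muscle markers were all above the floor in the GM-TC and M-TC groups, with sums of 33.9 to 111.9 CPM, and summed to 0.914 to 1.75 CPM in the other libraries. They thus differed between the dishes at steady state, and between steady state and LPS on TC, and their part in the results of those comparisons was not tested. All 6 LPS check genes (Il1b, Tnf, Il6, Nos2, Cxcl10 and Ifit1) were called higher in each of the 4 LPS comparisons.

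Acod1 was far lower at steady state than upon LPS challenge, when it was among the genes with the most counts. At steady state its levels were 68.6 and 71.6 CPM in GM-TC, 93.5 and 98.0 CPM in GM-noTC, 153 and 148 CPM in M-TC, and 178 and 180.02 CPM in M-noTC. Upon LPS challenge they were 4398 and 4519 CPM in GM-TC, 4049 and 4052 CPM in GM-noTC, 8593 and 8264 CPM in M-TC, and 7838 and 7633 CPM in M-noTC. Every LPS library was above every steady state library, and within each treatment every M library was above every GM library. Ranked by count, without regard to gene length, among all genes of a library, Acod1 stood at 1028 to 2673 at steady state, at 22 or 23 in GM upon LPS and at 7 or 8 in M upon LPS. It then held 0.405% to 0.452% of all counts in GM and 0.763% to 0.859% in M.

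**Figure D1:**
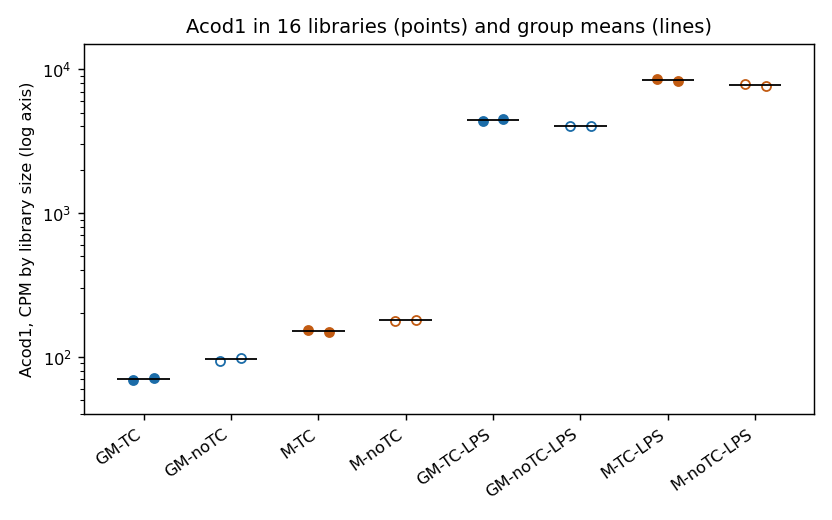
Acod1 level in CPM by library size on a log axis for the 8 groups, with a point for each of the 2 libraries and a line for the group mean; filled points are TC and open points noTC, blue is GM and orange is M. The 8 LPS libraries lie between 4049 and 8593 CPM and the 8 steady state libraries between 68.6 and 180.02 CPM.

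The induction was 88.7-fold in GM-TC (log2 fold change 6.47, SE 0.056, adjusted p = 5.8e-27), 60.2-fold in GM-noTC (5.91, SE 0.054), 99.4-fold in M-TC (6.64, SE 0.056) and 71.5-fold in M-noTC (6.16, SE 0.055). By library size the log2 fold changes were 5.99, 5.40, 5.81 and 5.43. The call held in all 4 groups without any 1 replicate and under each other setting tried. The noTC folds rest on steady state levels that include the excess on noTC described below. At its median share that excess would come to 33.5 of 95.8 CPM in GM-noTC and 29.7 of 178.8 CPM in M-noTC. Per kilobase of annotated exon, where genes can be roughly compared in level, Acod1 stood at 26.7 CPM in GM-TC, under Cs at 45.2 and Idh1 at 233. In GM-noTC it was also under Cs, at 36.5 against 45.6. In M it was above Cs, at 57.3 against 44.1 in M-TC and 68.2 against 49.2 in M-noTC. In GM-TC-LPS it stood at 1700 CPM per kilobase, beside 53.7 for Cs and 58.0 for Idh1. In M-TC-LPS the value was 3213 CPM per kilobase, beside 35.7 for Cs and 83.7 for Idh1. As a ratio within a library, which no scaling can change, Acod1 had 4.21 to 12.5 counts for every 100 counts of the 8 TCA cycle enzymes at steady state. Upon LPS the ratio was 385 to 446 in GM and 881 to 1018 in M.

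The 8 TCA cycle enzymes together went from 1439 to 1665 summed CPM at steady state to 835 to 1052 CPM upon LPS challenge, by library size. Much of that fall was in Idh1, the cytosolic enzyme with the largest share of the sum at steady state. Its mean level went from 645 to 161 CPM in GM-TC and from 781 to 232 CPM in M-TC. With TMM scaling and Acod1 included, 3 of the 9 genes were called higher and 4 lower in GM-TC, beside 32.8% and 34.2% of all genes tested. In GM-noTC, 3 were higher and 3 lower, beside 33.6% and 34.0%. In M-TC, 6 were higher and 1 lower, beside 37.6% and 36.4%, and in M-noTC 5 were higher and 1 lower, beside 36.4% and 35.9%. By library size these counts turned to 2 higher and 7 lower in both GM groups and 1 higher and 8 lower in both M groups, while among all genes 2012 to 2149 were higher and 7841 to 8648 lower. Idh1 fell in all 4 groups under both scalings, and the sign of the change in Ogdh, and in M of Cs, Mdh2 and Idh3a, depended on the scaling.

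**Figure D2:**
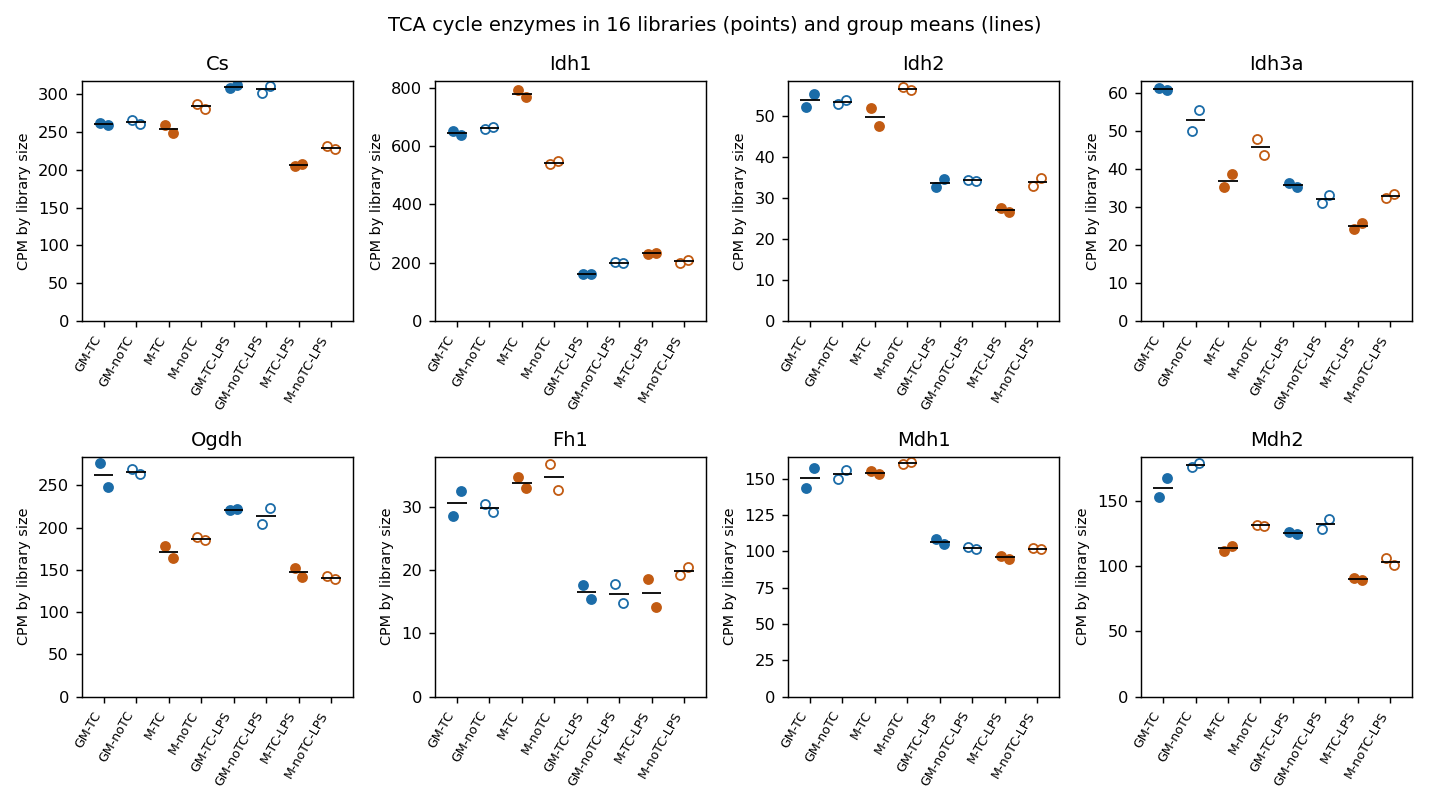
Level of each TCA cycle enzyme in CPM by library size, from 0, for the 8 groups, with a point for each of the 2 libraries and a line for the group mean; filled points are TC and open points noTC, blue is GM and orange is M. Idh1 lies between 538 and 792 CPM at steady state and between 159 and 235 CPM upon LPS, and Cs lies higher upon LPS in GM and lower upon LPS in M.

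Cs catalyses the entry step of the cycle and supplies the citrate from which cis-aconitate is made. Its levels at steady state were 262 and 259.9 CPM in GM-TC, 266 and 261 CPM in GM-noTC, 260.1 and 249 CPM in M-TC, and 288 and 280.5 CPM in M-noTC. Upon LPS they were 308 and 312 CPM in GM-TC, 302 and 311 CPM in GM-noTC, 205 and 207 CPM in M-TC, and 231 and 227 CPM in M-noTC. In GM the LPS libraries were all above the steady state libraries, and in M they were all below. In GM the rise was called with both scalings, at log2 fold changes of 0.73 in GM-TC (SE 0.047, adjusted p = 4.9e-12) and 0.73 in GM-noTC, and 0.25 and 0.22 by library size. In M the log2 fold changes with TMM were 0.52 on TC and 0.42 on noTC, and -0.30 and -0.31 by library size, all called, so the direction in M depended on the scaling. As a share within a library, Cs was higher in all 8 LPS libraries than in the steady state libraries of the same cells. Its share of the summed CPM of the 8 enzymes went from 16.1% ± 0.016 (SD, n = 2) to 30.7% ± 0.20 in GM-TC and from 15.96% ± 0.14 to 24.6% ± 0.35 in M-TC. The share of Idh1 fell at the same time, from 39.7% to 15.9% in GM-TC and from 49.0% to 27.6% in M-TC. A share of the sum can thus rise without a rise in level.

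The 3 isocitrate dehydrogenase genes moved differently from each other. Idh1 encodes the cytosolic enzyme, which uses NADP, Idh2 the mitochondrial enzyme that also uses NADP, and Idh3a the catalytic subunit of the mitochondrial enzyme of the cycle itself, which uses NAD. Per kilobase of exon Idh1 stood at 233 CPM in GM-TC, beside 20.8 for Idh2 and 12.04 for Idh3a. At steady state it stood at 652 and 638 CPM in GM-TC, 659 and 666 CPM in GM-noTC, 792 and 769.6 CPM in M-TC, and 538 and 548 CPM in M-noTC. Upon LPS it stood at 159 and 162 CPM in GM-TC, 202 and 197 CPM in GM-noTC, 229 and 235 CPM in M-TC, and 199.7 and 209 CPM in M-noTC. No LPS library overlapped a steady state library.

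The fall in Idh1 was 2.87-fold in GM-TC (log2 fold change -1.52, SE 0.049, adjusted p = 1.7e-17), 2.33-fold in GM-noTC, 1.90-fold in M-TC and 1.61-fold in M-noTC. By library size the log2 fold changes were -2.003, -1.73, -1.75 and -1.41. Its share of the summed CPM of the 8 enzymes went from 39.7% ± 0.42 to 15.9% ± 0.16 in GM-TC, from 39.9% ± 0.11 to 19.2% ± 0.68 in GM-noTC, from 49.0% ± 0.052 to 27.6% ± 0.66 in M-TC, and from 37.6% ± 0.64 to 23.6% ± 0.79 in M-noTC (SD, n = 2). Per kilobase of exon, Idh1 was the highest of the 9 genes in each steady state group, at 196 to 282 CPM, and the second behind Acod1 in each LPS group, at 58.0 to 83.7 CPM. That place depends on the exon length used. In GM-TC-LPS, Cs was close behind at 53.7 CPM per kilobase, and without regard to length it was above Idh1, at 310 against 161 CPM.

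Idh2 stood at 47.7 to 57.1 CPM at steady state and at 26.7 to 34.9 CPM upon LPS. Its log2 fold change was -0.20 in GM-TC (SE 0.067, adjusted p = 0.012), and it was not called in GM-noTC (-0.13), M-TC (-0.05) or M-noTC (-0.02). The call in GM-TC did not hold without GM-TC replicate 2 (-0.14) or GM-TC-LPS replicate 1 (-0.16). By library size Idh2 was called lower in all 4, at -0.68, -0.64, -0.88 and -0.74. Idh3a stood at 50.1 to 61.3 CPM in GM and 35.1 to 47.8 CPM in M at steady state, and at 31.0 to 36.2 CPM in GM and 24.3 to 33.4 CPM in M upon LPS. It was called lower in GM-TC (-0.29, SE 0.071) and GM-noTC (-0.21, SE 0.072). In M-TC and M-noTC it was called higher with TMM (0.27 and 0.25) and lower by library size (-0.56 and -0.47). These calls did not hold without GM-noTC replicate 2 (-0.11) or GM-noTC-LPS replicate 1 (-0.15) in GM-noTC, M-TC replicate 1 (0.20) or M-TC-LPS replicate 2 (0.21) in M-TC, and M-noTC replicate 2 (0.20) in M-noTC.

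Ogdh encodes the first component of the oxoglutarate dehydrogenase complex, the step after isocitrate dehydrogenase. It was called higher upon LPS in all 4 groups with TMM, at 0.24, 0.19, 0.61 and 0.32 (GM on TC, GM on noTC, M on TC, M on noTC), and lower in all 4 by library size, at -0.24, -0.32, -0.22 and -0.41. With TMM the call in GM-noTC did not hold without GM-noTC-LPS replicate 2 (0.12, adjusted p = 0.13). Within a library, its share of the 8 enzymes was higher upon LPS in each group, for example 16.1% ± 1.2 against 21.9% ± 0.084 in GM-TC and 10.7% ± 0.39 against 17.5% ± 0.69 in M-TC (SD, n = 2). The share of Idh1 fell in each group, which by itself raises the shares of the other enzymes. The share of Ogdh thus does not settle its direction.

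Fh1 encodes fumarase and stood at 28.6 to 36.8 CPM at steady state and 14.1 to 20.5 CPM upon LPS. It was called lower in GM-TC (-0.42, SE 0.11) and GM-noTC (-0.37, SE 0.11). In M-TC the value was -0.22 (adjusted p = 0.085) and in M-noTC -0.07 (adjusted p = 0.56), and by library size Fh1 was called lower in all 4, at -0.80 to -1.04. The call in GM-noTC did not hold without GM-noTC replicate 1 (-0.31) or GM-noTC-LPS replicate 2 (-0.24).

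The malate dehydrogenases are the cytosolic Mdh1, part of the malate-aspartate shuttle, and the mitochondrial Mdh2, the last step of the cycle. Mdh1 stood at 144 to 162 CPM at steady state and 95.1 to 108 CPM upon LPS. With TMM its log2 fold changes were -0.02 and -0.07 in GM and 0.14 and 0.07 in M, of which only that in M-TC was called (adjusted p = 0.027), and that call did not hold when any 1 of its 4 libraries was left out (0.13 to 0.15). Mdh2 was not called in GM-TC (0.13, adjusted p = 0.050, and called by DESeq2's test at 0.042) or GM-noTC (0.08) with TMM and was called higher in M-TC (0.49) and M-noTC (0.38). By library size both genes were called lower in all 4 groups, Mdh1 at -0.50 to -0.69 and Mdh2 at -0.33 to -0.43. Relative to the mean of the 8 enzymes in the same library, Mdh2 was higher by 0.21 to 0.39 (log2) in all 4 LPS groups, without overlap between groups. That mean includes Idh1, which fell in all 4.

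**Figure D3:**
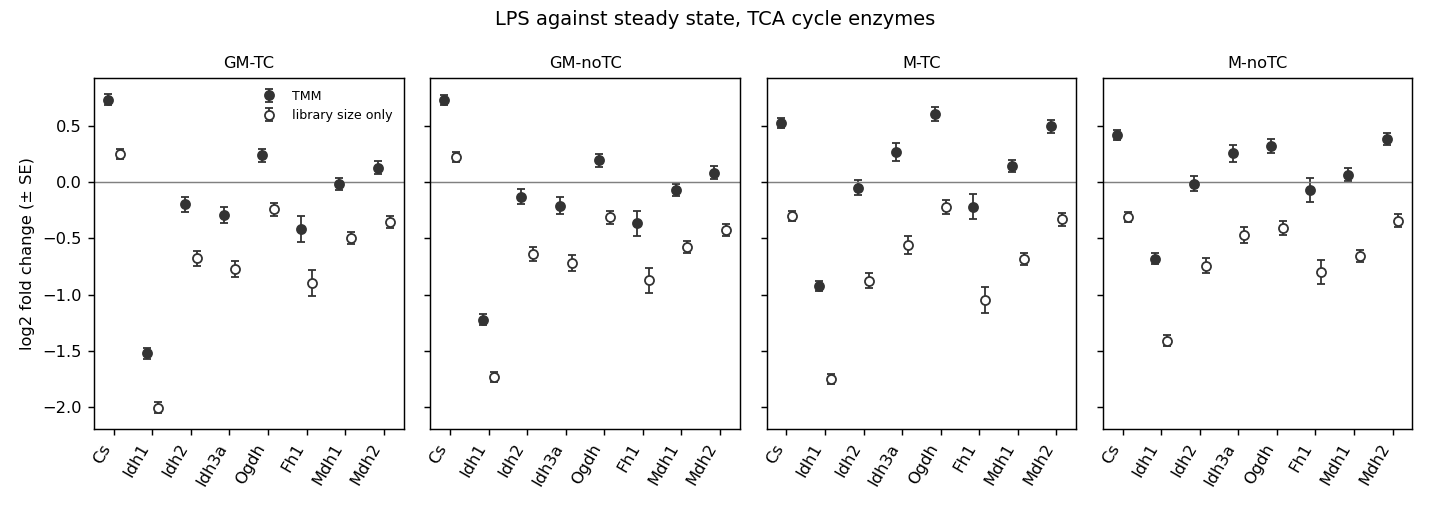
Log2 fold change upon LPS (with SE, over 2 against 2 libraries) of the 8 TCA cycle enzymes in the 4 combinations of growth factor and dish; filled points are TMM scaled and open points use library size only. Idh1 lies lowest in each panel under both scalings, at -0.68 to -1.52 with TMM, and Ogdh lies above 0 with TMM and below 0 by library size.

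GM-BMDMs had less Acod1 than M-BMDMs in each of the 4 conditions and more Ogdh and Mdh2. Acod1 was lower in GM by 1.73-fold on TC at steady state (log2 fold change -0.79, SE 0.049, adjusted p = 3.9e-12), 1.53-fold on noTC at steady state (-0.61), 1.93-fold on TC upon LPS (-0.95) and 1.81-fold on noTC upon LPS (-0.86). By library size the values were -1.10, -0.90, -0.92 and -0.93. The noTC value at steady state is without the subtraction described below. On TC at steady state 6 of the 9 genes were called higher in GM and 1 lower, beside 32.6% and 28.9% of all genes tested. On noTC at steady state 7 were higher and 1 lower, beside 31.4% and 30.7%. Upon LPS the counts were 5 higher and 2 lower on TC, beside 33.9% and 32.9%, and 3 higher and 1 lower on noTC, beside 33.5% and 32.6%. By library size the steady state counts were 3 higher and 2 lower on TC and 4 higher and 2 lower on noTC, while among all genes 2458 were higher and 6363 lower on TC and 2469 and 6525 on noTC. In the same libraries, neutrophil and dendritic cell markers were also higher in GM, and their part in these differences was not tested.

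Ogdh stood at 277 and 247 CPM in GM-TC against 178 and 164 CPM in M-TC, and at 269 and 263 CPM in GM-noTC against 189 and 185 CPM in M-noTC. Upon LPS it stood at 220.4 and 222 CPM in GM-TC against 152 and 142 CPM in M-TC, and at 204 and 223 CPM in GM-noTC against 143 and 139 CPM in M-noTC. The GM and M libraries did not overlap in any condition. With TMM its log2 fold change was 0.93 and 0.80 at steady state and 0.56 and 0.68 upon LPS on TC and noTC, and by library size 0.61, 0.51, 0.59 and 0.60.

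Mdh2 stood at 153 and 167 CPM in GM-TC against 112 and 115 CPM in M-TC, and at 176 and 179 CPM in GM-noTC against 132 and 131 CPM in M-noTC. Upon LPS it stood at 126 and 125 CPM in GM-TC against 90.9 and 89.5 CPM in M-TC, and at 129 and 136 CPM in GM-noTC against 106 and 101 CPM in M-noTC. GM was higher in each condition, at 0.81, 0.73, 0.44 and 0.43 with TMM for TC and noTC at steady state and TC and noTC upon LPS. Mdh1, its cytosolic counterpart, was at 0.28 and 0.22 at steady state with TMM (called) and -0.03 and -0.07 by library size (not called). Upon LPS it was not called with TMM (0.12 and 0.08). By library size it was called higher in GM on TC upon LPS, at 108 and 105 CPM against 96.6 and 95.1 CPM in M, and not on noTC.

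Idh3a was called higher in GM in 3 conditions, at 1.04 on TC and 0.50 on noTC at steady state and 0.48 on TC upon LPS. On noTC upon LPS the value was 0.04 (SE 0.074, adjusted p = 0.65) and the libraries overlapped. Idh1 differed by dish: on noTC at steady state it was higher in GM (0.58), on TC upon LPS it was lower in GM (-0.56), on TC at steady state the value was 0.04 (-0.28 by library size, called), and on noTC upon LPS it was 0.04 (not called). Cs was called higher in GM upon LPS on TC (0.56) and noTC (0.49) under both scalings, and at steady state it was 0.35 and 0.18 with TMM and 0.04 and -0.11 by library size. Idh2 was called higher in GM on TC at steady state (0.43), on noTC at steady state (0.21) and on TC upon LPS (0.28), of which only the last was called by library size (0.31), and on noTC at steady state it turned to -0.09. The call on noTC did not hold without GM-noTC replicate 2 or either M-noTC replicate (0.18 to 0.19). Fh1 was not called in any of the 4 with TMM, with values between -0.22 and 0.17, and was called lower in GM on noTC upon LPS by library size (-0.29).

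**Figure D4:**
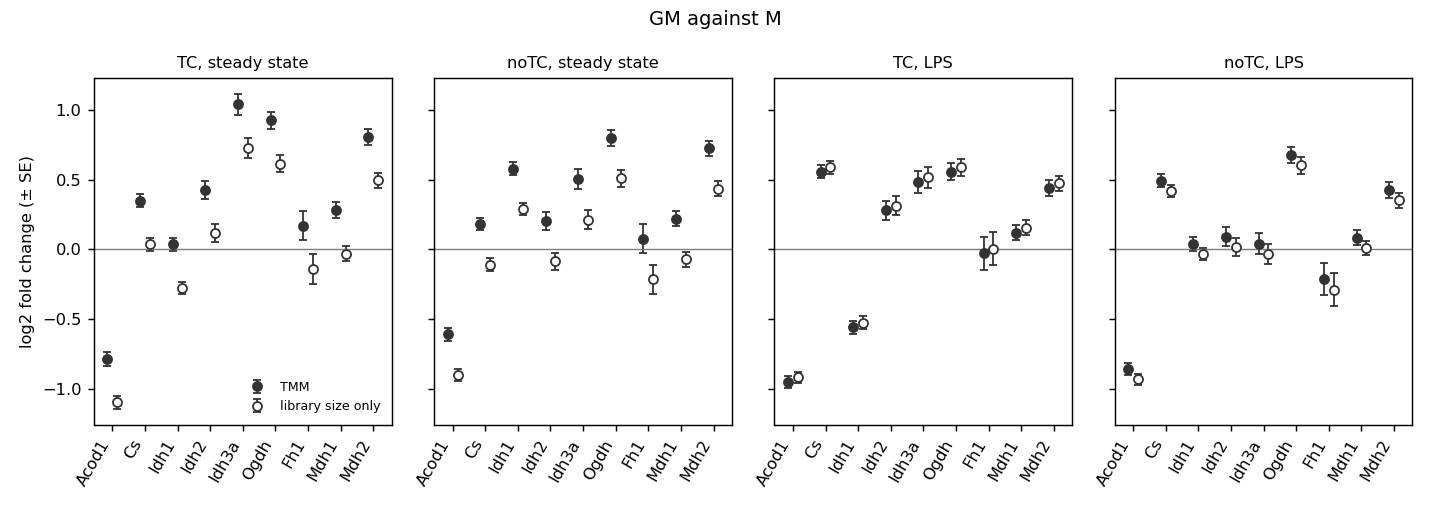
Log2 fold change of GM against M (with SE, over 2 against 2 libraries) of Acod1 and the 8 TCA cycle enzymes on each dish at steady state and upon LPS; filled points are TMM scaled and open points use library size only. Acod1 lies below 0 in all 4 panels, at -0.61 to -0.95 with TMM, and Ogdh and Mdh2 lie above 0 in all 4 under both scalings.

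Between the dishes, Acod1 was called higher on noTC at steady state and Idh1 was lower on noTC in M. The excess of Acod1, as a percent of its level in other libraries, lay in the range of genes near 0 on TC, described below. In GM at steady state only Acod1 was called, higher on noTC, which is 1 higher and 0 lower of 9 genes beside 4.69% and 2.85% of all genes tested. In GM upon LPS only Idh1 was called, again 1 higher and 0 lower, beside 2.08% and 0.727%. In M at steady state 5 were higher and 1 lower on noTC, beside 16.1% and 11.1%. In M upon LPS 2 were higher and 2 lower, beside 10.4% and 12.9%, with 4 higher and 2 lower by library size, where 2101 of all genes were higher and 880 lower. Leaving out any 1 of the 4 libraries left 2 or 3 higher in M at steady state, and upon LPS 0 were higher without M-TC-LPS replicate 1 or M-noTC-LPS replicate 2.

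Acod1 was 1.36-fold higher on noTC than on TC in GM at steady state (log2 fold change 0.44, SE 0.049, adjusted p = 2.7e-06) and 1.20-fold higher in M (0.26, SE 0.046, adjusted p = 1.6e-04). Upon LPS it was lower on noTC in M (-0.21, SE 0.043, adjusted p = 0.0010), and in GM the value was -0.12 (adjusted p = 0.18). All 4 noTC libraries at steady state lay above the TC libraries of the same growth factor. The steady state noTC libraries also held low counts of genes that are near 0 on TC and abundant in other libraries. Over 15 such genes in GM, the excess on noTC had a median of 0.675% of their mean level in 10 other libraries, the 8 LPS libraries and the 2 steady state noTC libraries of the other growth factor, and over 19 such genes in M it was 0.600%. For single genes it ranged from 0.390% to 0.907% in GM and from 0.0084% to 0.845% in M. The excess of Acod1 was 25.7 CPM in GM, or 0.517% of its mean in those 10 libraries, and 28.5 CPM in M, or 0.575%. With the median share subtracted from the noTC steady state libraries, the noTC against TC value of Acod1 was -0.17 in GM (adjusted p = 0.061) and 0.0066 in M (adjusted p = 0.95). That share took 33.5 CPM in GM and 29.7 CPM in M, more than the whole excess of Acod1. The loss of both calls was thus fixed by the amount taken. With 8 LPS libraries among the 10, the subtraction would also take away any real rise of LPS-induced genes on noTC. Other shares in the ranges of single genes were not tried. Of the 6 LPS check genes, 6 in GM and 5 in M were also called higher on noTC at steady state. The source of these reads was not tested.

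Idh1 was lower on noTC than on TC in M and, upon LPS, higher on noTC in GM. In M at steady state it fell from 792 and 769.6 CPM on TC to 538 and 548 CPM on noTC (-0.51, SE 0.047, adjusted p = 3.8e-08), and upon LPS from 229 and 235 CPM to 199.7 and 209 CPM (-0.27, SE 0.049, adjusted p = 3.0e-04). In GM upon LPS it was higher on noTC, at 202 and 197 CPM against 159 and 162 CPM (0.33, SE 0.049, adjusted p = 2.3e-04), and at steady state the value was 0.03 (adjusted p = 0.77). These libraries did not overlap in any of the 4 pairs, and the 3 calls were made with both scalings and without any 1 replicate. Its share of the 8 enzymes was 49.0% ± 0.052 in M-TC and 37.6% ± 0.64 in M-noTC (SD, n = 2).

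Idh3a was higher on noTC in M at steady state (0.32, adjusted p = 0.0023) and upon LPS (0.31, adjusted p = 0.0057). In GM it was -0.22 (adjusted p = 0.062) and -0.14 (adjusted p = 0.44), which were not called. Idh2 was likewise called higher on noTC in M at 0.20 and 0.23, and DESeq2's test called neither (adjusted p = 0.099 and 0.059). At steady state the calls did not hold without M-TC replicate 1 or M-noTC replicate 1 for Idh3a (0.25 and 0.26), nor without M-TC replicate 2 or either M-noTC replicate for Idh2 (0.13 to 0.20). Upon LPS both genes lost their call without M-TC-LPS replicate 1 or M-noTC-LPS replicate 2, and Idh2 also without M-TC-LPS replicate 2. Cs (0.17) and Mdh2 (0.22) were called higher on noTC in M at steady state only, and upon LPS they were at 0.06 and 0.11, and at 0.15 and 0.20, both called, by library size. The steady state calls did not hold for Cs without M-TC replicate 2 or either M-noTC replicate (0.13 to 0.18), nor for Mdh2 without M-TC replicate 1 (0.19). Ogdh, Fh1 and Mdh1 were not called between the dishes in either growth factor.

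**Figure D5:**
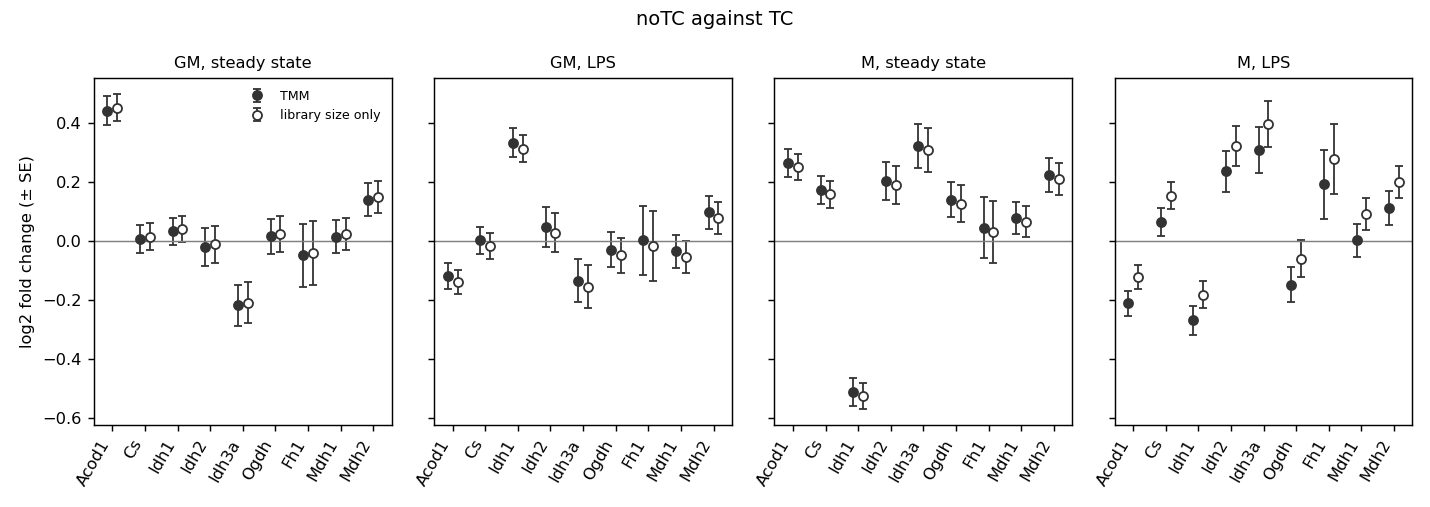
Log2 fold change of noTC against TC (with SE, over 2 against 2 libraries) of Acod1 and the 8 TCA cycle enzymes in GM and M at steady state and upon LPS; filled points are TMM scaled and open points use library size only. Idh1 is at -0.51 and -0.27 in M and at 0.03 and 0.33 in GM, and Acod1 is above 0 at steady state and below 0 upon LPS.

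Whether the LPS response itself differed was tested as an interaction. Between growth factors, 6 of the 9 genes differed on TC, beside 41.1% of all genes tested, and 5 on noTC, beside 36.2%. Idh1 fell further in GM than in M, by 0.60 on TC (SE 0.068, adjusted p = 2.5e-07) and 0.54 on noTC (SE 0.068, adjusted p = 1.2e-06) on the log2 scale, and by 0.25 and 0.32 by library size, which were also called. Cs had the higher response in GM under both scalings, by 0.21 on TC and 0.31 on noTC with TMM and 0.55 and 0.53 by library size. With TMM the Cs call on TC did not hold without GM-TC-LPS replicate 2 (0.20) or M-TC replicate 1 (0.19). Between dishes, 2 genes differed in GM, beside 0.783% of all genes tested, and 3 in M, beside 10.6%. The fall in Idh1 was smaller on noTC than on TC in both GM (0.30, SE 0.068, adjusted p = 0.038) and M (0.24, SE 0.068, adjusted p = 0.024). Neither difference was firm: in GM the call did not hold without any 1 of the GM-noTC, GM-TC-LPS or GM-noTC-LPS libraries (0.29 to 0.32, adjusted p = 0.096 to 0.20), and in M not without M-TC replicate 1, M-TC-LPS replicate 1, M-noTC replicate 1 or M-noTC-LPS replicate 2 (0.19 to 0.23). The Acod1 response was smaller on noTC by 0.56 in GM and 0.48 in M, and with the subtraction described above the difference was 0.05 in GM (adjusted p = 0.90) and -0.22 in M (adjusted p = 0.045). That subtraction took more from Acod1 than its whole steady state excess on noTC.

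A wider list of 34 genes was read from the same fit: the rest of the cycle, entry of carbon into the cycle, citrate use, carboxylate carriers and the kinases and phosphatases of pyruvate dehydrogenase. Of these 33 were tested, all but Ogdhl. Upon LPS, 7 were called higher and 11 lower in GM on TC, 7 and 8 in GM on noTC, 13 and 6 in M on TC, and 17 and 4 in M on noTC. Over all genes tested the higher and lower calls were 32.8% and 34.2%, 33.6% and 34.0%, 37.6% and 36.4%, and 36.4% and 35.9%. By library size the counts of the list were 1 and 27, 2 and 25, 2 and 29, and 3 and 28, beside 2149 and 7841, 2053 and 7983, 2040 and 8648, and 2012 and 8572 of the 12514 genes tested. The median log2 fold changes of the list were -0.09, 0.05, 0.14 and 0.15, beside -0.05, -0.03, -0.01 and -0.01 over all genes tested.

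Dld, the dihydrolipoamide dehydrogenase shared by the pyruvate and oxoglutarate dehydrogenase complexes, was called higher upon LPS in all 4 groups, at 0.91, 0.99, 1.05 and 1.08, and its LPS libraries lay above its steady state libraries by library size too. Pdk3, a kinase that inactivates pyruvate dehydrogenase, was higher at 0.64 and 0.80 in GM and 1.75 in both M groups (by library size 0.16, not called, and 0.29 in GM, 0.92 and 1.02 in M), and the response differed between growth factors by -1.10 on TC and -0.95 on noTC (both called). Pdk2, another such kinase, was lower at -2.39, -1.92, -2.72 and -2.19. Pdk1 was lower in all 4 groups too, between -0.19 and -0.66. Pdp1, a phosphatase that reactivates pyruvate dehydrogenase, was lower in GM-TC (-1.54) and GM-noTC (-1.07) and at -0.01 and 0.05 in M (by library size -0.83 and -0.67, both called), and that difference between growth factors was called (-1.53 on TC and -1.12 on noTC). Me1, the cytosolic malic enzyme, was higher in all 4 with TMM, at 0.54, 0.58, 0.88 and 0.58, and by library size the values were 0.06, 0.07, 0.06 and -0.14, none of them called. Aco1, the cytosolic aconitase, was lower in all 4, at -0.45, -0.44, -0.44 and -0.39.

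Pdk4 had 3 and 29 counts in GM-TC, 9 and 4 in M-TC and 0 counts in all 4 of the TC libraries upon LPS and both M-noTC libraries. The value in GM-TC rests on replicate 2, since 3 counts is the floor, and no fold change is given at these counts. The groups that held these counts, GM-TC and M-TC, were also those with the heart muscle markers, whose part in the Pdk4 values was not tested.

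The values upon LPS of the subunits of succinate dehydrogenase, the enzyme that itaconate inhibits, depended on the scaling. By library size Sdha, Sdhb, Sdhc and Sdhd were called lower in all 4 groups, with log2 fold changes between -0.88 and -0.45. With TMM in GM, Sdhd was called lower at -0.40 on TC and -0.23 on noTC, and Sdha, Sdhb and Sdhc were not called, between -0.14 and 0.05. In M-noTC all 4 were called higher with TMM, between 0.15 and 0.20, and they turned to between -0.57 and -0.53 by library size. In M-TC only Sdha was called with TMM (0.14), and it turned to -0.69 by library size. Of the succinyl-CoA ligase subunits, Suclg2 was lower in GM at -0.47 and -0.38 with TMM. Sucla2 was called higher with TMM in M, at 0.25 and 0.33, and turned to -0.58 and -0.39 by library size. Suclg1 was not called with TMM, between -0.13 and 0.15. By library size all 3 were called lower in all 4 groups, between -0.95 and -0.37. Sdha (-0.22) and Sdhd (-0.22) were lower on noTC than on TC in GM at steady state.

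For GM against M, 22 of the 33 were called higher and 5 lower on TC at steady state, 16 and 9 on noTC, 16 and 8 on TC upon LPS and 13 and 9 on noTC upon LPS. Over all genes tested these were 32.6% and 28.9%, 31.4% and 30.7%, 33.9% and 32.9%, and 33.5% and 32.6%. By library size the counts were 8 and 9, 8 and 14, 16 and 8, and 9 and 13, beside 2458 and 6363, 2469 and 6525, 4442 and 3915, and 3716 and 4549 of all genes tested. Sdhd was higher in GM at 1.14, 0.95, 0.70 and 0.57 in these 4 comparisons. Dlst, the second component of the oxoglutarate dehydrogenase complex, was higher at 0.69, 0.52, 0.55 and 0.71, and Aco1 at 0.50, 0.63, 0.49 and 0.59. Pdk2 was higher in GM at 0.61, 0.75, 0.94 and 1.01, of which the first was not called by library size (0.30). Lower in GM in all 4 comparisons were Me1 (-1.37 to -1.72), Suclg2 (-1.12 to -1.76) and Pdk1 (-1.03 to -1.42).

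Between dishes the list had 1 gene called higher and 2 lower on noTC in GM at steady state, 1 and 0 in GM upon LPS, 6 and 2 in M at steady state and 3 and 2 in M upon LPS. Over all genes tested these were 4.69% and 2.85%, 2.08% and 0.727%, 16.1% and 11.1%, and 10.4% and 12.9%. By library size the counts of the list were 1 and 2, 1 and 0, 5 and 2, and 7 and 0. Among all genes tested they were 605 and 312, 220 and 116, 1859 and 1502, and 2101 and 880. Pdk1 was higher on noTC in all 4, at 0.58, 0.41, 0.59 and 0.49. Its levels at steady state were 30.7 and 30.8 CPM in GM-TC against 44.8 and 47.7 CPM in GM-noTC, and 77.8 and 78.3 CPM in M-TC against 115 and 117 CPM in M-noTC, and no pair of groups overlapped. In M, Me2, the mitochondrial malic enzyme, was higher on noTC at 0.40 at steady state and 0.46 upon LPS. At steady state in M, Me1 was higher (0.47) and Pdk2 lower (-0.47), and upon LPS Dlat, the acetyltransferase of pyruvate dehydrogenase, was higher (0.24) and Slc25a10, the dicarboxylate carrier, was lower (-0.21). By library size no gene of the list was called lower in M upon LPS, so the Slc25a10 call was not kept.

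The genes whose TMM scaled log2 CPM over the 16 libraries was most like that of Acod1, of 9134 genes compared, were Ifi209 (Pearson r = 0.999), Tnfaip3 (0.999), Sp140 (0.999), Ehd1 (0.999) and Nfkb1 (0.998). Tnfaip3, for example, stood at 25.04 to 55.9 CPM at steady state and 860.0 to 1694 CPM upon LPS. The widest range of group means among the TCA cycle enzymes was that of Idh1, at 1.55 on the log2 scale, against 0.30 for Mdh1, the narrowest. Most like Idh1 were Zfp385a (r = 0.977), Dip2b (0.975) and Mtmr3 (0.967), each with lower levels upon LPS, for example Mtmr3 at 120.2 to 143 CPM against 41.1 to 52.2 CPM. These correlations are descriptions over libraries that share groups, and the steady state and LPS libraries form 2 separate clusters.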

How the data were processed

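The deposited table holds expected counts per gene, which the authors made with HISAT2 and RSEM from poly(A) RNA and did not normalize. The genome build and the strand setting of the counting are not given in the sources used here. The submitters' processing notes also name fastp 0.18.0, Bowtie2 2.2.8 and StringTie 1.3.1. Between 6.56% and 8.19% of genes in a library had a value that was not whole, and values were rounded to whole counts. After edgeR's filter on low counts, 12514 of 16756 genes with a count were tested with edgeR 4.0.16 (R 4.3.3) in 1 quasi-likelihood fit over the 8 groups, with TMM scaling and no replicate block, at a biological coefficient of variation of 4.75%. SE is the log2 fold change divided by the root of the F statistic. On counts simulated for LPS in M-TC, with 200 changed genes of 12435, the test called 187 of them and 9 unchanged genes. The changed genes were drawn from those with higher counts, and the noise followed the spread of the fit itself. Many changes reported here are smaller than the simulated ones, and how well such changes are called was not tested. In the measured libraries of LPS in M-TC, 37.6% of genes tested were called higher and 36.4% lower. How the scaling performs with so large a share of genes called was not tested.

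Alternatives were DESeq2's size factors and its test (1.42.0), library size only, no expression filter, only the libraries of a comparison, a replicate block, leaving out each replicate, and a subtraction. The subtraction took from the steady state noTC counts the median excess of genes that lay under 1 CPM on TC and had a mean of at least 100 CPM over 10 libraries, the 8 LPS libraries and the 2 steady state noTC libraries of the other growth factor. The rule for named genes took the 9 genes, up to 3 called genes of the wider list per direction and comparison with the largest log2 fold change, each succinate dehydrogenase and succinyl-CoA ligase subunit, and the genes most like Acod1 (5) and Idh1 (3) with 10 CPM or more in at least 2 libraries. Of the wider list, 2 genes count in its totals but are not reported here by name. Values of named genes in further comparisons were added after they were seen. The 9 genes, the lists and the tests were chosen with earlier results of these data known. Levels per kilobase use the exons of all transcripts of a gene, merged, in a GENCODE annotation. RefSeq promoter windows matched 8 of the 9 genes by symbol, all but Idh3a. Floors of 3 counts cover counting error only.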

Additional observations from a re-analysis of the deposited data

Results flagged for a closer look

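The values below are differences between 2 log2 fold changes upon LPS, each tested as an interaction in the edgeR fit and listed because its adjusted p was under 0.05. For the growth factor, the value is the response of GM less that of M. On TC dishes the differences were -0.16 for Acod1 (adjusted p = 0.049), 0.21 for Cs (adjusted p = 0.015), -0.60 for Idh1 (adjusted p = 2.5e-07), -0.56 for Idh3a (adjusted p = 1.9e-04), -0.37 for Ogdh (adjusted p = 0.0012) and -0.37 for Mdh2 (adjusted p = 7.9e-04). On noTC dishes they were -0.25 for Acod1 (adjusted p = 0.0036), 0.31 for Cs (adjusted p = 6.7e-04), -0.54 for Idh1 (adjusted p = 1.2e-06), -0.46 for Idh3a (adjusted p = 9.9e-04) and -0.30 for Mdh2 (adjusted p = 0.0045). By library size Cs and Idh1 kept their calls on both dishes, Acod1 was 0.18 on TC and -0.03 on noTC, and Idh3a, Mdh2 and Ogdh were not called. In all genes the median of this difference was -0.04 on TC and -0.03 on noTC with TMM, and 0.31 and 0.19 by library size. Without 1 replicate, the Acod1 call on TC held only when that replicate was GM-TC replicate 1 or M-TC-LPS replicate 2.

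For the dish, the value is the response on noTC less that on TC. In GM the differences were -0.56 for Acod1 (adjusted p = 1.9e-05) and 0.30 for Idh1 (adjusted p = 0.038). In M they were -0.48 for Acod1 (adjusted p = 2.7e-05), 0.24 for Idh1 (adjusted p = 0.024) and -0.29 for Ogdh (adjusted p = 0.031). The value of Acod1 in GM was 0.05 with the noTC steady state counts reduced by the share of reads described in the report, that of Idh1 in GM was 0.29 (adjusted p = 0.092) with the same subtraction, and that of Ogdh in M was -0.19 (adjusted p = 0.20) by library size. The subtraction took more from Acod1 than its whole excess on noTC. The Ogdh call in M held only without M-TC replicate 1 or without M-TC-LPS replicate 2.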

How the results depend on the processing

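Over 144 values of the 9 genes (9 genes in 16 comparisons), DESeq2's size factors kept direction and call in 143, DESeq2's test in 140, no expression filter in 139, the fit to only the libraries of a comparison in 136, and library size only in 103. Leaving out a replicate kept both in 660 values, lost the call in 55 and gained it in 5, with the lone sample of a group assumed to vary like the other groups.

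By library size only, the counts of the 9 genes called higher and lower were 2 and 7 upon LPS in GM-TC and GM-noTC, 1 and 8 in M-TC and M-noTC, 3 and 2 for GM against M on TC, 4 and 2 on noTC, and 2 lower on noTC upon LPS. They were 4 higher on noTC in M upon LPS, and 2 genes differed in the LPS response between growth factors on noTC. Reversed upon LPS in all 4 groups was Ogdh (-0.24, -0.32, -0.22 and -0.41 in GM on TC, GM on noTC, M on TC, M on noTC). In M-TC and M-noTC these were Cs (-0.30 and -0.31), Mdh2 (-0.33 and -0.34), Idh3a (-0.56 and -0.47), Dlst (-0.20 and -0.38), Sucla2 (-0.58 and -0.39) and Sdha (-0.69 and -0.56). In M-TC they were Mdh1 (-0.69) and Slc25a10 (-0.55), and in M-noTC Dlat (-0.44), Sdhb (-0.53), Sdhc (-0.53), Sdhd (-0.57) and Me1 (-0.14). For GM against M, Mdh1 was -0.031 on TC and -0.072 on noTC, Sucla2 (-0.12) and Sdhc (-0.12) reversed on TC, and Cs (-0.11), Idh2 (-0.085) and Suclg1 (-0.10) on noTC. In the LPS response by growth factor on TC, Acod1 was 0.18 (adjusted p = 0.017), Pdk1 0.038, Sdhb 0.047 and Suclg1 0.066. Among all genes, that difference had 2225 higher and 2920 lower calls on TC with TMM and 4899 and 1307 by library size, and 2110 and 2418 against 3753 and 1373 on noTC. The LPS response by dish in M had 389 higher and 936 lower with TMM and 764 and 486 by library size.

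With no expression filter the lower counts were 2 upon LPS in M-TC, 2 for GM against M on noTC upon LPS and 1 for noTC against TC in GM. With only the libraries of the comparison, 2 genes were lower upon LPS in M-TC, 1 was lower on noTC in GM upon LPS and 1 differed in the LPS response by dish in GM. DESeq2's test called 1 gene higher on noTC in M upon LPS. With the subtraction, 0 genes were higher on noTC in GM and 0 differed in the LPS response by dish in GM, and Acod1 was -0.17 for noTC against TC in GM, 0.10 in the LPS response by growth factor on noTC and 0.053 in that by dish in GM. From Acod1, the subtraction took more than its whole excess on noTC. The Acod1 difference by growth factor on TC was not called with no expression filter (adjusted p = 0.098), by DESeq2's test (0.064) or with only its libraries (0.15). The cause was not tested.

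Leaving out 1 replicate gave 1 to 2 lower genes upon LPS in M-TC (2 without M-TC-LPS replicate 1), 1 to 2 lower for GM against M on noTC upon LPS (2 without GM-noTC-LPS replicate 1), and 1 to 2 higher on noTC in GM (2 without GM-TC replicate 2). It gave 2 to 3 higher on noTC in M, against 5 with all libraries, and 0 to 2 in M upon LPS. For the LPS response by dish it gave 1 to 2 in GM and 1 to 3 in M. A replicate block moved no count of the 9 genes and gave Mdh2 a call upon LPS in GM-TC (0.13, adjusted p = 0.044). Samples of the same number share only a number: their deviations from the group means correlated at -0.064 to 0.020 over 12 comparisons. With 17527802 to 31458363 counts a library, replicates of a group differed by more than counting error. The chi-square per degree of freedom was 12.9 in GM-TC and 1.92 to 5.28 in the other groups. The p-values rest on a spread shared over all groups, so they do not carry the wider spread of GM-TC by itself.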
